A study of Arabidopsis thaliana with 18 samples.

Results

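SWEET16 (AT3G16690) and SWEET17 (AT4G15920) encode sugar transporters of the vacuolar membrane, and both were found by gene symbol in the array annotation, as 2 of 13350 named genes. Each was read by 1 probe set, 258421_at for SWEET16 and 245524_at for SWEET17, and both passed the filter on dim probe sets. The pair was chosen with the difference between salicylic acid and silwet already known, so that difference is described below without a test. The samples were Arabidopsis thaliana of the accession Tsu-1, the natural genotype shared by all groups, and their total RNA was hybridised to 18 Affymetrix ATH1 arrays. Of these, 9 were from plants given 0.3 mM salicylic acid (SA), a defence hormone, in 0.02% silwet, a surfactant, and 9 from plants given 0.02% silwet alone. The titles number the SA arrays 100 to 108 and the silwet arrays 91 to 99, and every 3 consecutive arrays carry the replicate numbers 1, 2 and 3. These sets are called triplets: triplet 1 holds SA arrays 100 to 102 and silwet arrays 91 to 93, triplet 2 holds 103 to 105 and 94 to 96, and triplet 3 holds 106 to 108 and 97 to 99. The labels give no tissue, plant age or time, and do not say what separates the triplets. Separate plants for the arrays of a group are nowhere stated, so the p-values cover only the variation seen among arrays, and some of that may be technical.

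SWEET proteins let sugars pass membranes down their concentration gradient, in either direction and without using energy. SWEET17 carries fructose across the tonoplast, the membrane around the vacuole, and is known for setting the fructose content of leaves and for its strong expression in roots. SWEET16, its closest relative, carries glucose, fructose and sucrose across the same membrane, while TMT1 and TMT2 load sugar into the vacuole against the gradient, driven by protons. The values are MAS5 signals, a brightness per probe set on a linear scale, and differences are on the log2 scale, where 1 unit is a doubling. In bulk RNA, fewer cells of a type and less RNA per cell cannot be told apart.

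Most of the 18 arrays were alike, and SA array 100 stood apart. The mean correlation of an array with the others was between 0.899 and 0.939. SA array 100 was lowest at 0.899, before silwet array 97 at 0.915 and SA array 102 at 0.92. Median signals were between 26.01 on SA array 100 and 35.9 on SA array 106. No tissue is labelled, and 4 leaf photosynthesis genes had mean log2 signals of 10.76 to 11.54 on the SA arrays and 11.20 to 11.69 on the silwet arrays. PYK10, a beta-glucosidase abundant in roots, was at 6.83 to 8.26 on SA arrays and 6.76 to 8.95 on silwet arrays, and EXPA7, a root hair expansin, was among the dim probe sets left out. No xylem or other vascular marker of the list had a named probe set.

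SWEET17 was lower on the SA arrays than on the silwet arrays in triplets 1 and 3, and nearly equal in triplet 2. In triplet 1 its signal was 139.7, 54.6 and 82.3 on SA arrays 100, 101 and 102, against 293.8, 143.4 and 227.0 on silwet arrays 91, 92 and 93. All 3 SA arrays were below all 3 silwet arrays, by a narrow margin between the highest SA array and the lowest silwet array. Of all probe sets tested, 10.2% had their SA arrays placed this way in triplet 1, and since the gene was chosen on this contrast nothing is read from its place among them. The difference, SA minus silwet, was -1.31 (SE 0.37, n = 3 arrays each), which is 0.404 times the silwet level.

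In triplet 2, SWEET17 had signals of 149.4, 118.1 and 175.9 on SA arrays 103, 104 and 105, against 156.1, 123.2 and 180.7 on silwet arrays 94, 95 and 96. The groups overlapped almost completely, and their difference of -0.05 (SE 0.37) was far inside the spread of either group. Its sign turned to 0.07 without silwet array 96, to 0.10 without SA array 104 and to 0.11 with array weights. In triplet 3 the signals were 258.9, 159.4 and 174.9 on SA arrays 106, 107 and 108, against 435.5, 193.2 and 420.6 on silwet arrays 97, 98 and 99. Silwet arrays 97 and 99 were the brightest of all 18 for SWEET17, while array 98 was below SA array 106, so the groups overlapped. The difference in triplet 3 was -0.77 (SE 0.37), or 0.589 times the silwet level. Without silwet array 98 it was -1.15, and with array weights -1.2.

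SWEET16 was lower with SA in triplets 1 and 3 and higher with SA in triplet 2, and whether it differed from SWEET17 was not tested. Its signal in triplet 1 was 40.8, 10.4 and 21.0 on SA arrays 100, 101 and 102, against 57.9, 45.2 and 35.3 on silwet arrays 91, 92 and 93. SA array 100 lay between the silwet arrays and array 101 was the dimmest of all 18, so the difference of -1.12 (SE 0.44) came with overlapping groups. Without SA array 101 the difference was -0.63, and without array 100 it was -1.61. In triplet 2 the signals were 21.8, 23.6 and 45.0 on SA arrays 103, 104 and 105, against 13.3, 17.8 and 32.9 on silwet arrays 94, 95 and 96. The brightest array of each treatment carried the replicate number 3, and the difference was 0.53 (SE 0.44). In triplet 3 the signals were 22.03, 18.9 and 27.3 on SA arrays 106, 107 and 108, against 38.7, 26.3 and 40.3 on silwet arrays 97, 98 and 99. Only silwet array 98 fell within the range of the SA arrays, and the difference was -0.62 (SE 0.44). Single arrays also moved the triplet 2 difference by over 1.5 times, to 0.20 without SA array 105, to 0.24 without silwet array 94 and to 0.89 without silwet array 96. With log2(signal + 16), which damps dim values, the SWEET16 differences in triplets 1, 2 and 3 were -0.69, 0.31 and -0.39.

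**Figure D1:**
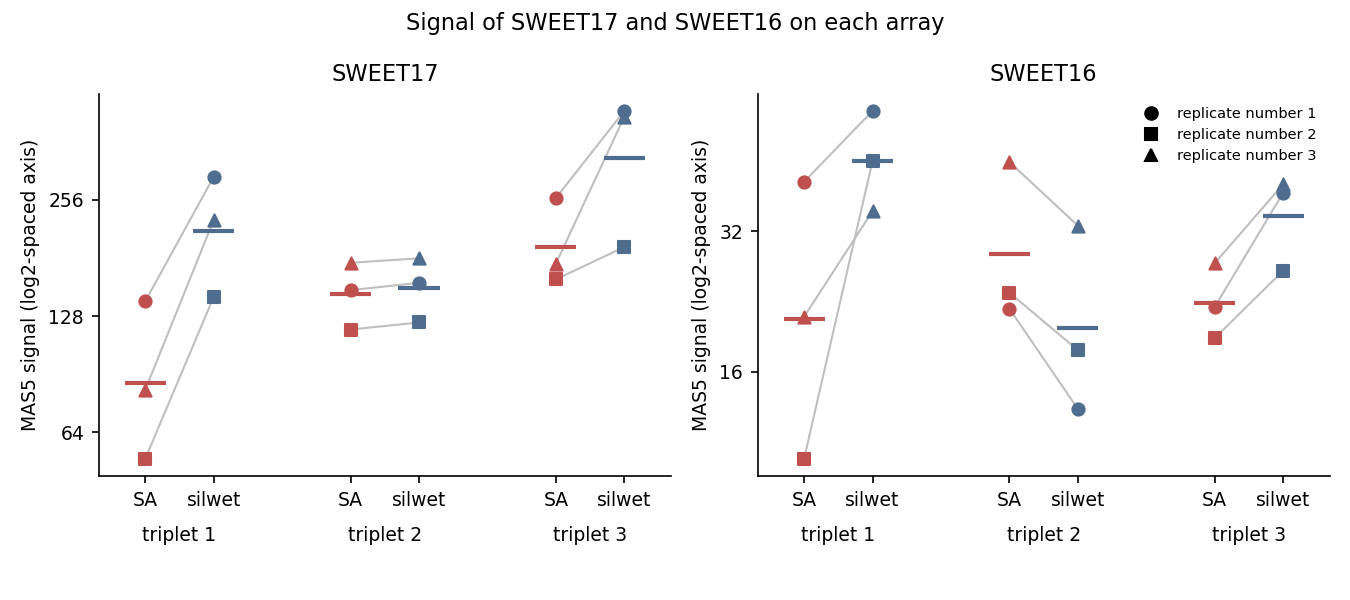
MAS5 signal of SWEET17 (left) and SWEET16 (right) on each array, on a log2-spaced axis, with SA arrays in red and silwet arrays in blue for each triplet. Symbols mark the replicate number, grey lines join the SA and silwet arrays of the same triplet and number, and bars are geometric means of 3 arrays; SWEET17 is at 54.6 to 139.7 on the SA arrays of triplet 1 and at 143.4 to 293.8 on its silwet arrays.

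When arrays with the same triplet and replicate number were set against each other, the direction was the same in all 3 pairs of every triplet for both genes. How many other probe sets had such agreement was not counted. Both genes were chosen on this contrast, so nothing is read from the agreement. For SWEET17 the pair differences, SA minus silwet, were -1.07, -1.39 and -1.46 in triplet 1 for numbers 1, 2 and 3. In triplet 2 they were -0.06, -0.06 and -0.04, and in triplet 3 they were -0.75, -0.28 and -1.27. SWEET17 was lower with SA in every pair, but by very unequal amounts, and only slightly in triplet 2. For SWEET16 the pair differences were -0.51, -2.12 and -0.75 in triplet 1 and -0.81, -0.48 and -0.56 in triplet 3. In triplet 2 they were 0.71, 0.41 and 0.45, all in the other direction. The pair with SA array 101 had the largest of the 9 differences of SWEET16.

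**Figure D2:**
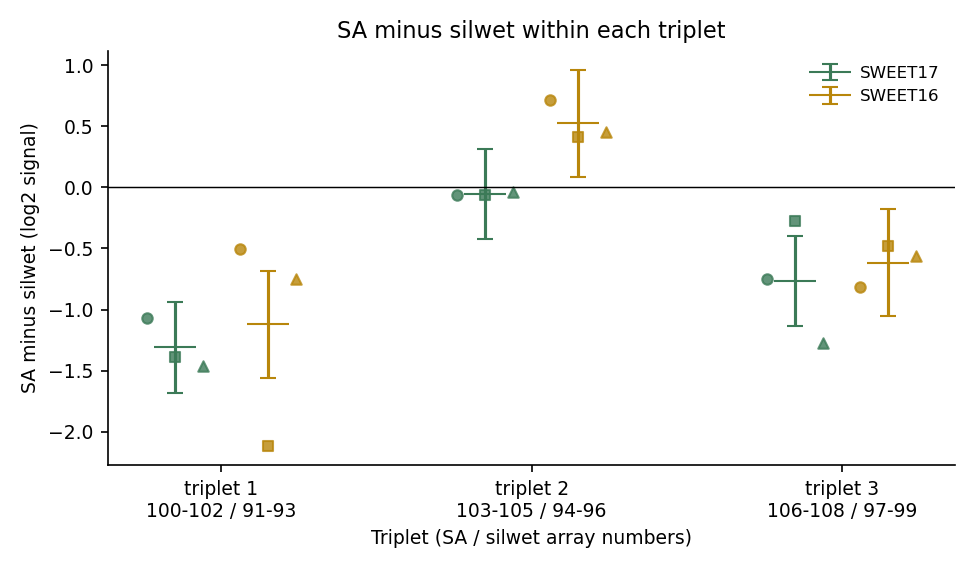
SA minus silwet on the log2 scale by triplet for SWEET17 (green) and SWEET16 (ochre), with points for the pairs of replicate number 1 (circle), 2 (square) and 3 (triangle). Horizontal bars and whiskers are the mean difference and its model SE (n = 3 arrays per group): SWEET17 was at -1.31, -0.05 and -0.77, and SWEET16 at -1.12, 0.53 and -0.62 in triplets 1, 2 and 3.

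Over the triplets together, SWEET17 had a mean log2 signal of 7.07 ± 0.66 on the SA arrays and 7.78 ± 0.66 on the silwet arrays (SD, n = 9 each). Its mean difference within triplets was -0.71 (SE 0.21), and 8 of 9 SA arrays were below the silwet median. SWEET16 averaged 4.57 ± 0.62 on the SA arrays and 4.97 ± 0.67 on the silwet arrays (SD, n = 9 each), with a mean difference of -0.41 (SE 0.25) and 7 of 9 SA arrays below the silwet median. Both means join triplets that differed in size, and for SWEET16 in sign.

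The order of the levels put silwet triplet 3 highest for SWEET17, with a mean log2 signal of 8.36 ± 0.66 (SD, n = 3). It was followed by silwet triplet 1 at 7.73 ± 0.52, SA triplet 3 at 7.59 ± 0.37, silwet triplet 2 at 7.24 ± 0.28, SA triplet 2 at 7.19 ± 0.29 and SA triplet 1 at 6.42 ± 0.68. Both groups of triplet 2 thus stood side by side in the order, and the groups of triplet 1 did not. For SWEET16 the order was silwet triplet 1 at 5.50 ± 0.36, silwet triplet 3 at 5.11 ± 0.34, SA triplet 2 at 4.83 ± 0.57, SA triplet 3 at 4.49 ± 0.27, SA triplet 1 at 4.37 ± 0.99 and silwet triplet 2 at 4.31 ± 0.67. No neighbours in either order differed beyond their spread, since the ranges of every neighbouring pair of groups overlapped. Silwet triplet 2 was the lowest group for SWEET16 and the lowest silwet group for SWEET17.

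Within the silwet arrays alone, both genes were lower in triplet 2 than in the other triplets, but neither passed the test across all probe sets without the replicate number in the model. The silwet arrays also enter the difference on which the pair was chosen. No test over the silwet triplets is therefore independent of the choice, for either gene. The 3 silwet arrays of triplet 3 all had more SWEET17 signal than those of triplet 2, at 193.2 or more against 180.7 or less, as had 7.70% of all probe sets. The difference, triplet 3 minus triplet 2, was 1.12 (SE 0.37, 2.17-fold) with a limma adjusted p of 0.32, which became 0.0551 with the replicate number as a block. No probe set (0.00%) passed this comparison without the block, though 13.6% had an unadjusted p under 0.05, and 11 passed with it. It passed without silwet array 98, at 1.5 and an adjusted p of 0.0391. Triplet 2 minus triplet 1 was -0.49 (adjusted p = 0.617 in limma), with overlapping groups, and was -0.25 without silwet array 91 and -0.77 without array 92. The moderated F-test over the 3 silwet triplets gave SWEET17 an adjusted p of 0.177 in limma, or 0.0361 without silwet array 98. With the block it was 0.0127, a call that 12.0% of all probe sets shared, against 4.53% without the block. An exact permutation test of the 9 silwet arrays gave p = 0.107 over 1680 assignments, and 0.0278 when arrays were moved only within a replicate number, the smallest p that those 216 assignments allow.

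For SWEET16 the 3 silwet arrays of triplet 2, at 13.3 to 32.9, were all below those of triplet 1, at 35.3 to 57.9, as was the case for 11.1% of all probe sets. Triplet 2 minus triplet 1 was -1.19 (SE 0.44, 0.438 times), with a limma adjusted p of 0.178 and 0.0869 with the replicate block. Triplet 3 minus triplet 2 was 0.80 (SE 0.44, adjusted p = 0.388), and triplet 3 minus triplet 1 was -0.39 (adjusted p = 0.627), both in limma. Without silwet array 94 the first of these was 0.51, and without array 91 or 98 the second was -0.21 or -0.195. With log2(signal + 16), triplet 2 minus 1 was -0.75 and triplet 3 minus 2 was 0.48. The F-test over the silwet triplets gave an adjusted p of 0.223 in limma, or 0.111 with the block, and the exact permutation test gave p = 0.05 over all assignments and 0.0833 within numbers. With array weights both genes passed the F-test over the silwet triplets, at adjusted p of 0.000365 for SWEET17 and 0.00286 for SWEET16. The weighted model called 8133 probe sets over the silwet triplets, against 721 without weights.

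Among the SA arrays, SWEET17 was highest in triplet 3, and triplet 3 against triplet 1 passed the test. The low SA arrays of triplet 1 also enter the difference on which the gene was chosen, so this call is not independent of the choice and is favoured by it. The 3 SA arrays of triplet 3, at 159.4 to 258.9, were all above those of triplet 1, at 54.6 to 139.7. Of all probe sets 20.7% had SA arrays of triplets 3 and 1 placed this way. The difference, triplet 3 minus triplet 1, was 1.17 (SE 0.37, 2.26-fold, n = 3 each), with a limma adjusted p of 0.0299 and 0.00101 with the block. A rise in this comparison was called for 12.9% of all probe sets. The call was lost when SA array 101, 102, 106 or 108 was left out, at adjusted p of 0.12, 0.0781, 0.128 and 0.0516. Triplet 2 minus triplet 1 was 0.77 (SE 0.37) with a limma adjusted p of 0.162, and passed with the block at 0.0174, without SA array 100 at 0.0343, and without SA array 100 and silwet array 97 together at 0.0272. A rise in that comparison was called for 10.6% of all probe sets, and for 16.3% with the block. The F-test over the SA triplets gave SWEET17 an adjusted p of 0.0746 in limma. It passed with the block at 0.00268, without silwet array 98 at 0.0387 and without SA array 100 at 0.015, and 20.2% of all probe sets passed it without the block and 29.4% with it. The exact permutation test gave p = 0.0464, and 0.0556 within replicate numbers.

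SWEET16 gave no such order on the SA arrays. Its differences were 0.46 for triplet 2 minus triplet 1, -0.34 for triplet 3 minus triplet 2 and 0.12 for triplet 3 minus triplet 1 (SE 0.44 each), and the last turned to -0.10 after quantile normalization. The F-test over the SA triplets had a limma adjusted p of 0.737, and the exact permutation test gave p = 0.671. The SA groups of triplets 1, 2 and 3 had geometric mean signals of 20.7, 28.5 and 22.5 for SWEET16, against 45.2, 19.8 and 34.5 for the silwet groups. For SWEET17 these were 85.6, 145.9 and 193.3 in the SA groups and 212.2, 151.5 and 328.3 in the silwet groups.

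SWEET17 also differed by replicate number, a pattern tested after its values had been seen. The array with number 2 was the lowest of its 3 arrays in 6 of 6 groups, and 6.92% of all probe sets had 1 number lowest throughout. Mean deviations from the group mean were 0.35 for number 1, -0.48 for number 2 and 0.13 for number 3 on the log2 scale. Number 2 minus number 1 was -0.82 (SE 0.16), and the test of number had a limma adjusted p of 0.0092, as against 17.5% of all probe sets called. An exact permutation of arrays within groups gave p = 0.00141. Both tests took SA and silwet arrays as separate. Those of the same triplet and number share deviations, so both p-values may be too small. For SWEET16 number 2 was the lowest in 3 of 6 groups, and the same difference was -0.43 (SE 0.28, adjusted p = 0.224 in limma, exact permutation p = 0.19). It was -0.16 without SA array 100 and -0.06 without arrays 97 and 100. What the replicate number stands for is not in the labels, and its part in the differences above was not tested beyond the block.

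Both genes moved together from array to array inside the groups, though how many other probe sets did so as closely was not counted. After each group's mean was taken off, SWEET16 and SWEET17 correlated over the 18 arrays at Pearson r = 0.684 (exact permutation p = 0.0101 over 46656 assignments within groups) and Spearman rho = 0.641 (exact permutation p = 0.0199). This was the only relation tested in its family. The permutation moved SA and silwet arrays separately. Those of the same triplet and replicate number share deviations, so both p-values may be too small. Leaving out silwet array 98 and SA array 101, the arrays farthest from the median for SWEET17, gave r = 0.579, and taking off the mean of each replicate number gave r = 0.681. SA array 100 had the largest positive deviation for both genes, and SA array 101 the largest negative one for SWEET16 and a large one for SWEET17. The deviations had the same sign for both genes on 11 of 18 arrays. Without arrays 97 and 100 together r was 0.55.

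**Figure D3:**
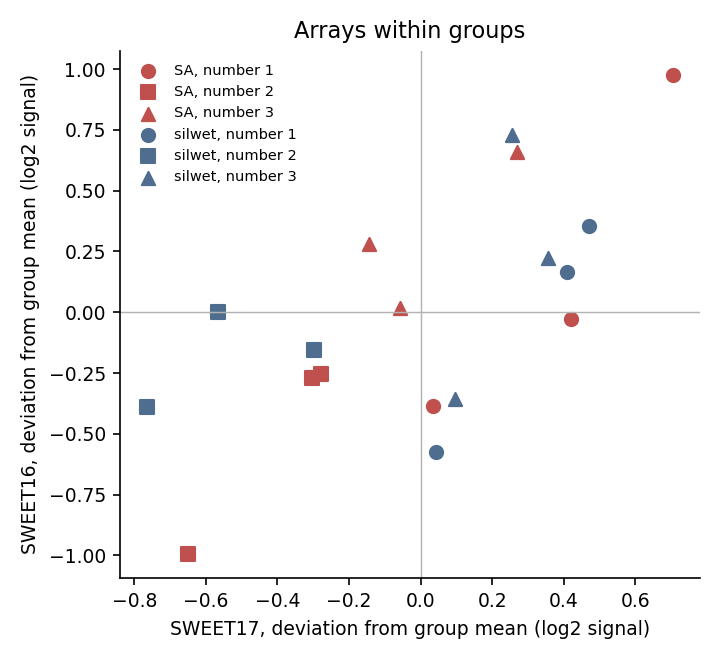
Deviation of SWEET16 (vertical) against that of SWEET17 (horizontal) from the mean of the array's own group, in log2 units, for 9 SA arrays (red) and 9 silwet arrays (blue), with symbols for the replicate number. The points run from lower left to upper right (r = 0.684), and every array with number 2 lies left of 0.

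Without arrays 97 and 100, which stood apart, the differences of SWEET17, SA minus silwet, were -1.66 in triplet 1 and -0.56 in triplet 3, and the differences of SWEET16 were -1.61 and -0.54. The 3'/5' ratio of the actin control probe sets, a measure of RNA integrity, was 1.99 to 3.19 on the SA arrays of triplet 1 and 1.98 to 3.42 on its silwet arrays in log2 units. It was 1.5 to 2.06 on the SA arrays of triplet 3, 1.98 to 2.38 on its silwet arrays, and between 1.5 and 3.42 over all 18 arrays. The same ratio for GAPDH was -0.475 to 0.86 on the SA arrays of triplet 1, highest on array 100. It was -0.471 to 0.142 on the silwet arrays of triplet 1. In triplet 3 it was -0.057 to 0.315 on the SA arrays and 0.116 to 0.555 on the silwet arrays. The leaf genes averaged 10.76 to 11.51 on the SA arrays of triplet 1, against 11.35 to 11.69 on its silwet arrays, and PYK10 was at 7.12 to 8.26 and 7.91 to 8.95 in the same groups. The part of these values in the differences of SWEET16 and SWEET17 was not tested.

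The other genes of sugar transport and use came from 13 lists of 137 genes, of which 49 had a named probe set and 38 were tested. Of the 15 other SWEET genes, 14 had a probe set and 7 passed the filter. SWEET1 and SWEET4, glucose carriers of the plasma membrane, SWEET2 of the root tonoplast, SWEET9 of nectaries, SWEET11 and SWEET13, which release sucrose for phloem loading, and SAG29 (SWEET15), a senescence gene, made up these 7. In triplet 1 their median difference, SA minus silwet, was 0.08, beside -0.10 over all 15922 probe sets tested. Above 0 were 5 of the 7, and 6317 of the 15922. SWEET13 was at -1.45 (SE 0.53), with 27.6, 25.3 and 17.2 signal on the SA arrays of triplet 1 and 51.1, 81.8 and 59.0 on its silwet arrays. Its limma adjusted p was 0.154, and 0.0321 with the replicate block, under which 8.81% of all probe sets passed, against 3.24% without it. None of the 7 passed without the block.

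SWEET1 was the family member whose signal followed SWEET16 most closely. Its differences, SA minus silwet, were -0.37, 0.20 and -0.56 in triplets 1, 2 and 3, beside -1.12, 0.53 and -0.62 for SWEET16. On silwet arrays SWEET1 had 311.9, 275.7 and 235.6 in triplet 1, 140.0, 173.0 and 162.6 in triplet 2 and 324.8, 164.1 and 301.9 in triplet 3. SWEET1 was thus also lowest on the silwet arrays of triplet 2, and its triplet 2 minus triplet 1 was -0.79 (SE 0.27, adjusted p = 0.141 in limma). SAG29 differed by 2.90 (SE 0.97) in triplet 2, where no probe set passed in limma (2.30% had an unadjusted p under 0.05, and none passed with the block either). Its signal there was 142.1, 56.6 and 98.7 on the SA arrays, and dim on the silwet arrays, at 11.1, 22.4 and 7.6. In triplet 3 no probe set passed by either fit, and 6.98% had an unadjusted p under 0.05.

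The other tonoplast sugar carriers had a median difference of -0.67 in triplet 1, beside -0.10 over all probe sets tested. Below 0 were 5 of 6, and 9605 of all 15922 probe sets, and 1 of the 6 passed, TMT2. A fall was called for 1.27% of all probe sets. TMT2 had a mean log2 signal of 5.93 ± 0.087 on the SA arrays and 7.22 ± 0.15 on the silwet arrays of triplet 1 (SD, n = 3 each). It fell by 1.29 (SE 0.26, limma adjusted p = 0.0139), a call lost without silwet array 91 (0.0717) or 92 (0.0581). TMT1 was at -0.71 (SE 0.33) and SFP1, a monosaccharide carrier-like protein, at -0.73 (SE 0.27). In triplet 3 TMT1 and TMT2 were at 0.87 and 0.91, whereas SWEET17 and SWEET16 were at -0.77 and -0.62. TMT1 and TMT2 thus had the sign of the SWEET pair in triplet 1 and the opposite sign in triplet 3, a difference that was not tested. Of the 6 carriers, 4 were above 0 in triplet 3, as were 8682 of the 15922 probe sets, and TMT3 and SFP1 were at -0.012 and -0.14.

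**Figure D4:**
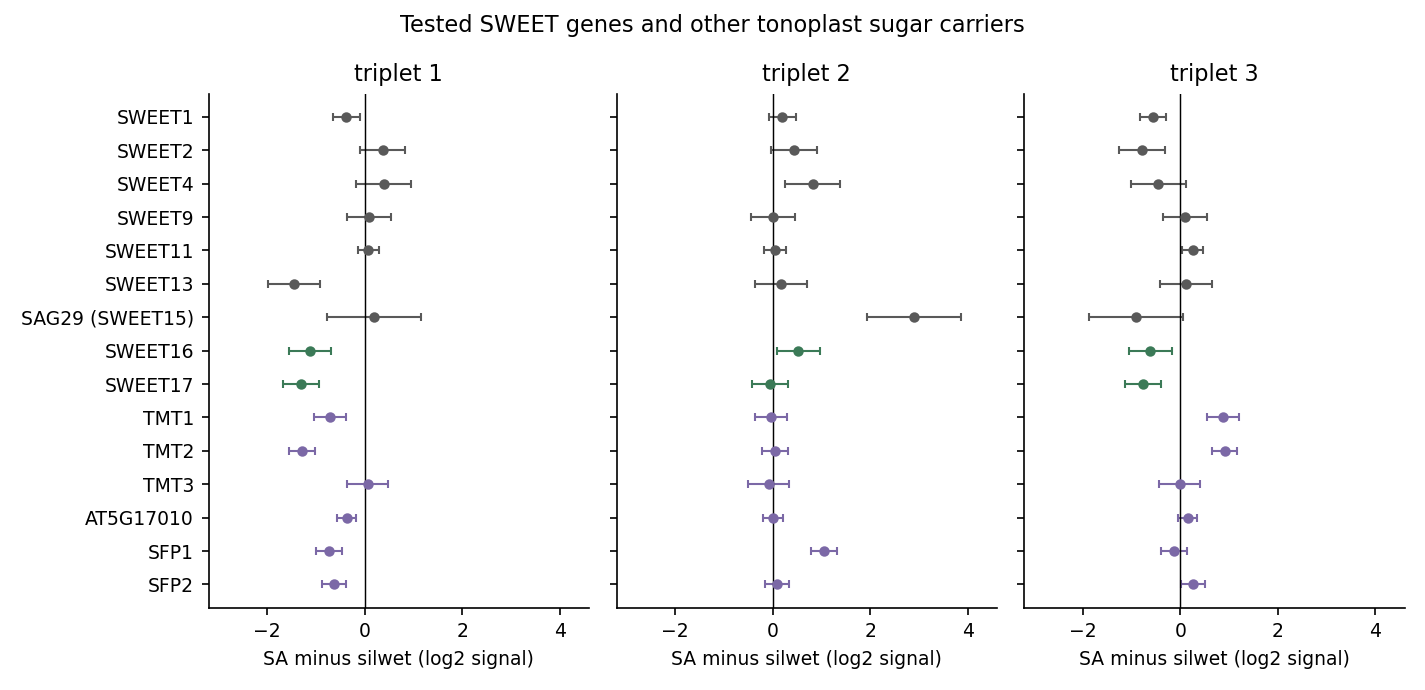
SA minus silwet on the log2 scale with its model SE (n = 3 arrays per group) in triplets 1, 2 and 3 for the tested SWEET genes (grey, with SWEET16 and SWEET17 in green) and other tonoplast sugar carriers (purple). SWEET16, SWEET17 and TMT2 lie at -1.12, -1.31 and -1.29 in triplet 1, and TMT2 lies at 0.91 in triplet 3, where SWEET16 and SWEET17 are at -0.62 and -0.77.

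Of the enzymes that make or use the sugars SWEET17 and SWEET16 carry, cwINV6, a cell wall invertase family member that acts on fructans, rose with SA in triplet 1 by 1.26 (SE 0.29, adjusted p = 0.0277 in limma). A rise was called for 1.97% of all probe sets, and this one was lost without any of 5 single arrays, 91, 92, 93, 101 or 102 (adjusted p of 0.0685 to 0.0879). AT1G62660, the other gene tested on the invertase list, was at -1.86 (SE 0.525), with an adjusted p of 0.0618 in limma and 0.0315 with the block. ATSPS4F, a sucrose phosphate synthase, was at -1.71 (SE 0.46), with an adjusted p of 0.0538 in limma and 0.0112 with the block. On the list of fructokinases and hexokinases AT5G51830 was at 1.13 (SE 0.34) in triplet 1, with an adjusted p of 0.0802 in limma and 0.00382 with the block. COR15B and COR47, cold and dehydration proteins, were at -0.99 and -1.0 in triplet 1 and passed only with the block, at 0.0394 and 0.0248. The other genes tested on that list, COR15A and LTI30, were at -0.925 and -0.09 and passed in neither fit. With the block, 4.35% of all probe sets were called higher in triplet 1 and 4.46% lower.

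The comparison in which SWEET17 passed, SA triplet 3 minus SA triplet 1, uses the same SA arrays of triplet 1, so the values are given side by side. TMT2 rose by 2.07 (SE 0.26, limma adjusted p = 4.17e-05) and ATSPS4F by 2.79 (SE 0.46, adjusted p = 0.000452), and both calls held when each array in turn was left out. SAG29 rose by 2.79 and SFP1 by 0.78, at adjusted p of 0.0477 and 0.0462 in limma, and lost the call in 12 and 13 of the 18 fits that left out 1 array. SAG29 was very dim on the SA arrays of triplet 1, at 8.5, 2.8 and 5.5, and its rise was 1.35 with log2(signal + 16). VHA-A2, a subunit of the vacuolar proton pump, rose by 0.69 (adjusted p = 0.0322), as did COR47 by 1.63 and COR15B by 1.64 (adjusted p of 0.00443 and 0.0142), all in limma. The VHA-A2 call was lost in 3 of the 18 fits that left out 1 array and the COR15B call in 2. COR15A, at 0.68, and LTI30, in the other direction at -0.305, were not called (limma adjusted p of 0.297 and 0.686). AT5G51830 fell by 3.14 and AT2G31390, on the same list, by 0.68 (adjusted p of 1.08e-05 and 0.00461), where 9.64% of all probe sets were called lower. On the silwet arrays AT1G62660, on the invertase list, fell by 2.05 and AT5G51830 by 1.35 in triplet 2 against triplet 1 (limma adjusted p of 0.0381 and 0.0366), where 2.78% were called lower. These calls were lost in 8 and 4 of the 18 fits that left out 1 array. SWEET16 was at -1.19 and SWEET17 at -0.49 in that comparison.

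The genes most like each of the pair were taken over the 18 arrays among 1204 genes with a symbol and a single probe set tested. For SWEET17 they were UBC16 (r = 0.854), RTE1 (0.85), UBC27 (0.837), LSM3A (0.816) and YAB5 (0.808). UBC16 and UBC27 are ubiquitin-conjugating enzymes, RTE1 acts in ethylene perception, LSM3A is an RNA-binding protein of mRNA decay and splicing, and YAB5 is a YABBY transcription factor of leaf polarity. For SWEET16 they were BSMT1 (0.843), NAI1 (0.838), MSRB6 (0.785), SWEET1 (0.759) and IAA18 (0.748). BSMT1 methylates SA and benzoate, NAI1 is needed for endoplasmic reticulum bodies, MSRB6 is a methionine sulfoxide reductase and IAA18 a repressor of auxin response. SA minus silwet of BSMT1 was -1.16, 1.66 and -1.77 in triplets 1, 2 and 3, and that of NAI1 was -1.02, 0.84 and -1.02. Both had the signs of SWEET16 in every triplet, which their choice by correlation over these same arrays favours. NAI1 was dim, at a mean log2 signal of 3.39. SWEET16 and SWEET17 themselves correlated at 0.636 over the same arrays. Among 15921 other probe sets, SWEET16 ranked 820 by correlation with SWEET17, and SWEET17 ranked 220 by correlation with SWEET16. These are descriptions of 18 arrays that share treatment, triplet and scaling.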

How the data were processed

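Total RNA of 18 Tsu-1 samples was measured on Affymetrix ATH1 arrays. The authors deposited linear intensity values per probe set and array, made with MAS5 per the submitters' processing notes, with the version not given in the sources used here. The trimmed mean of every array was 100.01. Values were taken as log2, 64 control probe sets of 22810 were left out, and so were the dimmest 30% by mean log2 signal (6824), which left 15922. The platform annotation named the probe sets, with symbols taken by gene identifier from the RefSeq TAIR10.1 table (13513 probe sets with 1 gene). No coordinates or sequences are given.

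The model was limma 3.58.1 in R 4.3.3, with 6 groups (treatment by triplet), a mean-variance trend and p-values adjusted by Benjamini-Hochberg across the 15922 probe sets, threshold 0.05. SE are the model's. Permutations were two-sided and exact, in Python 3.11.15 with numpy 2.4.6.

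Deviations from group means correlated at 0.216 to 0.481 in the 9 pairs of SA and silwet arrays with the same triplet and number, and 18 of 18 arrays correlated best with their own number. The replicate numbers, taken from the labels, therefore pair the arrays within triplets. A fit with number as a block stands beside a result where it changes a call. That block takes each number as shared by all triplets, which the pair correlations do not check. The SE of SA minus silwet are from the fit without the block. Alternatives were quantile normalization, log2(signal + 16), filters of 50% or none, a floor at the 20th percentile, array weights, no trend, blocks and leaving out each array.

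The rule named SWEET16 and SWEET17, list members and the 5 most alike genes of each. The genes and lists were chosen with earlier results of these data known. The test of replicate number, permutation within numbers and leaving out arrays 97 and 100 were added after values were seen. The number of arrays limits the precision.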

Additional observations from a re-analysis of the deposited data

Results flagged for a closer look

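SWEET16 was picked out because its response changed sign between triplets in every pair of arrays. How many other probe sets did so was not counted. All 3 same-numbered pairs were lower with SA in triplet 1 (mean difference, SA minus silwet, -1.12) and in triplet 3 (-0.62), and all 3 were higher with SA in triplet 2 (0.53). The interaction of treatment and triplet did not pass for SWEET16, with a limma adjusted p of 0.317, and 0.156 with the replicate block, where 160 and 936 of 15922 probe sets passed. With array weights it was 0.00808, in a fit that called 5586 of 15922 probe sets. SWEET16 was chosen on the contrast of SA and silwet and singled out here for its change of sign, so none of these p-values is independent of the choice and nothing is supported by them. The SWEET16 differences in triplets 1 and 2 differed by 1.65 (SE 0.62, triplet 2 minus triplet 1), and those in triplets 2 and 3 by -1.14 (SE 0.62, triplet 3 minus triplet 2).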

How the results depend on the processing

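Log2(signal + 16), a floor at the 20th percentile, no filter and no mean-variance trend kept the direction and the side of the threshold of every value of SWEET16 and SWEET17 that they were run on, but log2(signal + 16) shrank most SWEET16 differences by over 1.5 times. Leaving out the dimmest 50% did so for SWEET17 and gave no value for SWEET16, which was then not tested. Quantile normalization turned the SA triplet 3 minus triplet 1 difference of SWEET16 to -0.10. The SAG29 and SFP1 calls for SA triplet 3 minus 1 were lost with quantile normalization, no filter or no trend. Array weights gave SWEET17 differences of 0.11 for SA minus silwet in triplet 2, 1.57 for silwet triplet 3 minus 2, 0.95 for silwet triplet 3 minus 1 and 0.96 for SA triplet 2 minus 1, with adjusted p of 0.000365 over the silwet triplets, 0.00482 over the SA triplets and 0.0103 for the interaction. Without weights the SWEET17 interaction did not pass, at a limma adjusted p of 0.39, and 0.0588 with the replicate block. SWEET17 was chosen on the contrast of SA and silwet, so no interaction p-value is independent of the choice. Nothing is supported by them. For SWEET16 weights gave -0.93 for SA minus silwet in triplet 3, -1.31 for silwet triplet 2 minus 1 and 1.07 for silwet triplet 3 minus 2, with adjusted p of 0.00286 over the silwet triplets and 0.00808 for the interaction. Probe sets called with weights were 2045, 19 and 5380 for SA minus silwet in triplets 1, 2 and 3, 8133 over the silwet triplets, 6307 over the SA triplets and 5586 for the interaction of treatment and triplet. Weights were not used for the test of replicate number, and the cause of these shifts was not tested. With the replicate block SWEET17 passed for SA triplet 2 minus 1 (0.77) and over the silwet (0.0127) and SA (0.00268) triplets, and 1402, 1914 and 936 probe sets were called for triplet 1, the silwet triplets and the interaction, or 1361 for triplet 1 with the 9 pairs as the block. The block changed no other call of SWEET16 or SWEET17 between triplets or for the interaction. SA minus silwet of the pair was left without a test, so it is not covered here. Without arrays 97 and 100, SA triplet 2 minus 1 of SWEET17 was 1.12, the adjusted p over the SA triplets was 0.0118, and 1227 and 369 probe sets were called for triplet 1 and the interaction, while SFP1 and VHA-A2 lost their calls. Leaving out 1 array at a time moved SWEET17 to -0.20 to 0.10 for SA minus silwet in triplet 2, 0.91 to 1.5 for silwet triplet 3 minus 2, 0.44 to 1.12 for SA triplet 2 minus 1 and 0.85 to 1.53 for SA triplet 3 minus 1. Its adjusted p ranged over 0.0361 to 0.467 for the silwet triplets and 0.015 to 0.274 for the SA triplets. SWEET16 ranged over -0.037 to 0.95 for SA triplet 2 minus 1 and -0.38 to 0.61 for SA triplet 3 minus 1. Counts of probe sets called ranged over 96 to 869, 0 to 3 and 0 to 1 for triplets 1, 2 and 3, 255 to 1959 over the silwet triplets, 2069 to 3580 over the SA triplets and 18 to 683 for the interaction, and r within groups over 0.555 to 0.748. With 3 arrays a group and no detection calls, differences of a probe set as dim as that of SWEET16, which reached 10.4 on SA array 101, carry a larger SE than those of SWEET17.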
